A study of Mus musculus with 12 samples.

Results

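The miRNAs mmu-miR-199a-3p, mmu-miR-199a-5p, mmu-miR-199b* and mmu-miR-214, written below without the species prefix, 4 members of the miR-199 and miR-214 families, were followed across mouse embryonic fibroblasts treated with tunicamycin. They were chosen by name, as the array probes that carry these 4 miRNA names, out of 650 miRNAs on the array. All 4 were among the 175 miRNAs tested. The fibroblasts were of C57BL/6 background and either lacked ATF6a (ATF6aKO, written KO) or were ATF6a wild type (WT). Each genotype was left untreated or was kept in 2 ug/mL tunicamycin for 12 or 24 h. Total RNA, 100 ng per array, was labelled with Cy3 and hybridised to 12 single-colour arrays, with 2 arrays in each of the 6 groups. The labels call the experiments independent but name no separate cultures or animals, so p-values measure only the spread between these arrays.

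miR-199a-5p and miR-199a-3p are the arms of one hairpin, and miR-214 comes from a neighbouring hairpin. Both hairpins are cut from Dnm3os, a non-coding transcript that runs antisense within the Dnm3 gene and is known to be driven by the E-box factor TWIST1 in mesenchyme. Further copies of the miR-199 hairpin lie in Dnm2 (Mir199a-1) and in Dnm1 (Mir199b). The family is known from mesenchymal and fibroblast biology, and miR-199a-5p and miR-214 are known in human cells to act on components of the unfolded protein response. Tunicamycin blocks N-linked glycosylation, so unfolded proteins accumulate in the endoplasmic reticulum, and ATF6a is one of the membrane sensors that respond.

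The mature sequences are shown to separate what each probe can report. They are from RefSeq (GRCm38.p6), 5′ to 3′, with the seed, bases 2 to 8, in capitals.
miR-199a-5p: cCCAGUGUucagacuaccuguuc
miR-199a-3p: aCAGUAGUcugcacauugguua
miR-214 (listed in RefSeq as miR-214-3p): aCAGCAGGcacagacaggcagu
miR-214* (listed in RefSeq as miR-214-5p): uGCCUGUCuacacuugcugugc
Mir199b hairpin, with the stretch that aligns to miR-199a-5p in capitals: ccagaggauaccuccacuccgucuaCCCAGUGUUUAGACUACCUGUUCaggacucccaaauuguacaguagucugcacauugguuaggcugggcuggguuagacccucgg
The Mir199a-2 hairpin lies at chr1:162217814-162217923 and the Mir214 hairpin at chr1:162223368-162223477, both on the plus strand and inside Dnm3os, with 5444 bases between them. Mir199a-1 lies at chr9:21496495-21496564 on the minus strand inside Dnm2, and Mir199b at chr2:32318460-32318569 on the plus strand inside Dnm1. miR-199b* is thus no product of Dnm3os, and the name of that locus covers only miR-214 and one source of the miR-199a arms. The 3′ arm of the 3 miR-199 genes has one and the same sequence, so a probe for miR-199a-3p cannot tell the 3 genes apart. The aligned stretch of the Mir199b hairpin matches miR-199a-5p at 22 of 23 bases, the exception being C10U (counted from 1 at the 5′ end of miR-199a-5p). Which arm the miR-199b* probes target is not stated in the array files, and how far the probes of these near-identical sequences share signal was not tested. The 3 arms measured have 3 different seeds. miR-761 is the other mature miRNA in the RefSeq table with the miR-214 seed, and it was well above background on 0 of 12 arrays.

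The Dnm3os promoter window spans 250 bases before to 50 bases after the annotated start (chr1:162217373-162217672, plus strand, GRCm38.p6). It is shown because Dnm3os is the source of miR-214 and a source of the miR-199a arms. How much of the miR-199a signal came from Dnm3os was not tested. E-boxes (CANNTG, the element bound by TWIST1 and related factors) are in capitals.
Dnm3os promoter: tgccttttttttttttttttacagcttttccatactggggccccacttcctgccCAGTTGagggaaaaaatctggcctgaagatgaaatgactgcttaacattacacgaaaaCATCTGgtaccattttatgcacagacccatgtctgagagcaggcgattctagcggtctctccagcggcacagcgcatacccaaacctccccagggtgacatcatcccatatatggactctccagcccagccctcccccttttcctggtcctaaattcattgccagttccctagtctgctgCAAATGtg
The window held 3 E-boxes, a motif present in 72.3% of 32851 promoter windows of the same length. Searched on both strands, the ER stress response element (CCAAT, then any 9 bases, then CCACG), its CCACG part alone and the ATF6 element (TGACGTGG) had 0 matches in the window, against 0.119%, 32.8% and 0.676% of all windows. CCACG is also the last part of the whole element, so those shares overlap. No match in the window overlapped another motif.

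The arrays were checked for cell type with miRNA lists. Of 18 mesenchymal and fibroblast miRNAs other than the 4 members, 17 were well above background on at least 1 array and 9 on all 12. The 7 epithelial, 6 blood, 2 endothelial, 2 neural and 1 liver miRNAs listed were well above background on none, and 1 of 4 muscle miRNAs, miR-206, on at least 1. No probe for the Atf6 transcript is among the miRNA probes, so the genotype labels were not checked against the targeted gene. The file headers place the 8 tunicamycin arrays on one slide and the 4 untreated arrays on another, and effects of slide and of treatment cannot be told apart. KO arrays were always in row 2 and WT arrays in row 1 of a slide, so genotype and row cannot be told apart either. Replicate arrays differed more in treated cells: the SD over miRNAs of the log2 difference between replicates was 0.71 to 1.19 in the tunicamycin groups and 0.20 to 0.21 in the untreated groups.

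All 4 members were lower after tunicamycin in both genotypes and at both times. In KO cells they were at 39.2% to 44.3% of their untreated level at 12 h and at 37.6% to 52.2% at 24 h. In WT cells they were at 44.1% to 63.8% at 12 h and at 41.8% to 56.3% at 24 h. Levels below are log2 of the scaled intensity, where 0 is the 75th percentile of 87 bright probes on that array, and they compare arrays for one miRNA, not miRNAs with each other.

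miR-199a-3p, the arm known to repress mTOR and Met in human liver cancer cells, is given first. In KO cells its log2 level was 1.56 and 1.55 on the untreated arrays, 0.61 and 0.14 at 12 h and 0.56 and 0.43 at 24 h. In WT cells it was 1.25 and 1.24 untreated, 0.34 and 0.37 at 12 h and 0.33 and 0.46 at 24 h. Every treated array was below every untreated array of its genotype. The fall in KO cells was 1.18 ± 0.14 log2 units at 12 h (SE, n = 2 arrays per group; limma, adjusted p = 0.0018), and the log2 difference at 24 h was -1.06 ± 0.14 (adjusted p = 0.0028). Here and below the SE draws on the spread within all 6 groups, not only the groups compared. The log2 difference was -0.89 ± 0.14 at 12 h and -0.85 ± 0.14 at 24 h in WT cells (limma, adjusted p = 0.0022 and 0.0028).

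miR-199a-5p, the other arm of the same hairpin, known to repress HIF-1alpha in rat cardiac myocytes, moved the same way. In KO cells its log2 level was -1.16 and -1.20 untreated, -2.16 and -2.90 at 12 h and -2.41 and -2.71 at 24 h. In WT cells it was -1.29 and -1.28 untreated, -2.16 and -2.42 at 12 h and -2.43 and -2.65 at 24 h. Treated and untreated arrays did not overlap within a genotype, while the KO arrays at 12 h lay the furthest apart and enclosed those at 24 h. Its log2 difference was -1.35 ± 0.23 at 12 h and -1.39 ± 0.23 at 24 h in KO cells (limma, adjusted p = 0.0092 and 0.0095). It was -1.0 ± 0.23 at 12 h and -1.26 ± 0.23 at 24 h in WT cells (limma, adjusted p = 0.010 and 0.0043). One of its 2 probes was not well above background on the 4 replicate 2 arrays of the tunicamycin groups, and with the brighter probe alone the log2 differences were -1.12 and -1.28 in KO cells and -0.88 and -0.91 in WT cells at 12 and 24 h.

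miR-199b*, an arm of the Dnm1-hosted hairpin, fell with them. In KO cells its log2 level was -0.78 and -0.78 untreated, -1.87 and -2.31 at 12 h and -1.51 and -1.92 at 24 h. In WT cells it was -0.95 and -0.92 untreated, -2.20 and -2.04 at 12 h and -1.85 and -1.82 at 24 h. Treated and untreated arrays did not overlap, and in both genotypes the mean was lower at 12 h than at 24 h. Its log2 difference was -1.31 ± 0.17 at 12 h and -0.94 ± 0.17 at 24 h in KO cells (limma, adjusted p = 0.0025 and 0.012). It was -1.18 ± 0.17 at 12 h and -0.90 ± 0.17 at 24 h in WT cells (limma, adjusted p = 0.0015 and 0.0051). The WT value at 12 h includes 6 dim spots on replicate 1, described below. With the median of spots in place of the mean, no member was lower than -1.03 in that comparison. One of the 2 miR-199b* probes was not well above background on KO 12 h replicate 2, and the other probe alone gave -1.26 in KO cells at 12 h.

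miR-214, the product of the second Dnm3os hairpin and known to repress Ezh2 in muscle, was the member whose responses lay furthest apart between genotypes. In KO cells its log2 level was 0.06 and 0.04 untreated, -0.96 and -1.52 at 12 h and -1.23 and -1.50 at 24 h. In WT cells it was -0.12 and -0.26 untreated, -0.75 and -0.93 at 12 h and -0.94 and -1.10 at 24 h. Untreated KO arrays were above untreated WT arrays, and treated KO arrays were below the WT arrays of the same time. Of all miRNAs tested, 21.1% were likewise above in untreated cells, and 19.4% and 26.9% were below at 12 and 24 h. Its log2 difference was -1.29 ± 0.19 at 12 h and -1.41 ± 0.19 at 24 h in KO cells (limma, adjusted p = 0.0035 and 0.0028). It was -0.65 ± 0.19 at 12 h and -0.83 ± 0.19 at 24 h in WT cells (limma, adjusted p = 0.025 and 0.0095).

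**Figure D1:**
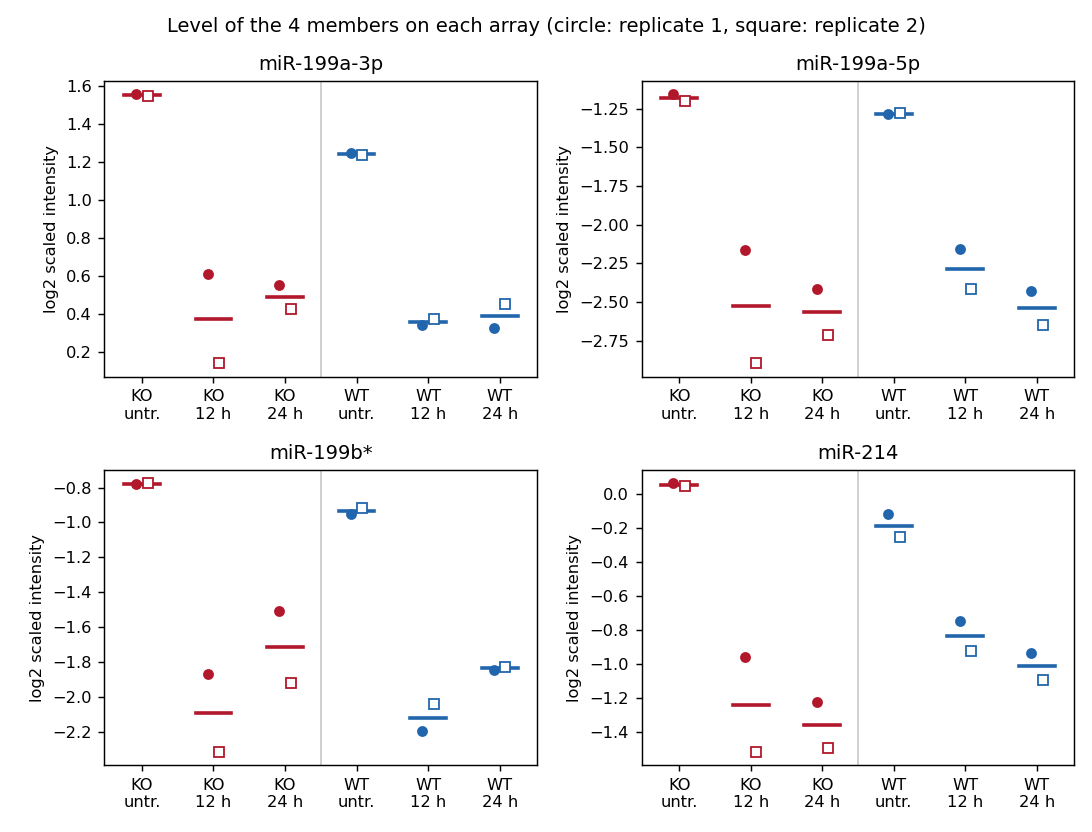
Log2 scaled intensity of each member (vertical axis, one panel per miRNA) on the 12 arrays by group, with KO left and WT right, circles for replicate 1, squares for replicate 2 and bars for the mean of 2. In every panel the treated arrays lie below the untreated arrays of the same genotype.

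All 4 members passed the threshold (limma, adjusted p below 0.05) as lower in each of the 4 treatment comparisons. Over all 175 miRNAs tested, 14.3% were called lower in KO cells at 12 h and 8% at 24 h. In WT cells 38.3% were called lower at 12 h and 33.7% at 24 h. All 4 members had both treated arrays below both untreated arrays, as did 38.9% (12 h) and 36.6% (24 h) of all miRNAs in KO cells and 55.4% (12 h) and 51.4% (24 h) in WT cells. The members' median log2 difference was -1.30 at 12 h and -1.22 at 24 h in KO cells, against -0.09 and -0.00049 over all miRNAs. It was -0.95 and -0.88 in WT cells, against -0.27 and -0.21 over all miRNAs. Each of the 8 probes of the members was lower on all treated arrays in all 4 comparisons. For the 6 probes that were well above background on every array, the log2 differences were -1.56 to -0.88 in KO cells and -1.23 to -0.60 in WT cells. In these bulk samples fewer cells of a type and less RNA per cell cannot be told apart.

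The calls depended on how arrays were put on one scale. Scaled on all probes, or taken unscaled from the deposited table, 0 of 4 members were called in any of the 4 comparisons. All-probe scaling called 0 of all 175 miRNAs in each comparison. The deposited table called 1 of 81 in KO cells at 24 h and 0 in the others, so these losses were not particular to the members. For miR-199a-3p in KO cells at 12 h, all-probe scaling gave a larger difference with a larger SE, -2.57 ± 1.13 against -1.18 ± 0.14. All members kept a negative log2 difference under every alternative tried, between -2.69 and -0.58 in KO cells and between -1.85 and -0.42 in WT cells. Some alternatives, such as leaving out an array of another group, could not change the difference. The calls in KO cells at 12 h also rested on a spread shared by all groups. Fitted on the groups compared alone, 0 of 4 members were called there (limma, adjusted p = 0.17 to 0.22), with miR-199a-3p at -1.18 ± 0.21. In KO cells at 24 h miR-199b* lost its call in that fit (limma, adjusted p = 0.088), and in WT cells all 4 kept theirs. With 1 array left out, miR-199a-3p kept its call in all 4 comparisons. In KO cells, miR-199a-5p and miR-199b* lost theirs at 24 h without untreated replicate 1 or 2 or 24 h replicate 2, and miR-199a-5p also at 12 h without untreated replicate 2 (limma, adjusted p = 0.055 to 0.076). In WT cells at 12 h, miR-214 lost its call without any 1 of the 4 arrays compared (adjusted p = 0.052 to 0.13), and miR-199a-5p without untreated replicate 1 or 2 or 12 h replicate 2 (adjusted p = 0.053 to 0.063). At 24 h, miR-214 lost it without WT untreated replicate 1 or WT 24 h replicate 2 (limma, adjusted p = 0.065 and 0.057). Under each of the 8 scalings and signals in the plot of the members' range, all 4 members lay below the median of all miRNAs. Dividing each array by 1 factor moves all miRNAs alike, apart from the floor. Between settings that differ only in such a factor, the members' place relative to the median was thus partly fixed in advance. That median itself moved between scalings, for example in KO cells at 12 h to -0.77 when scaled on all probes, against -0.09 in the main scaling.

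**Figure D2:**
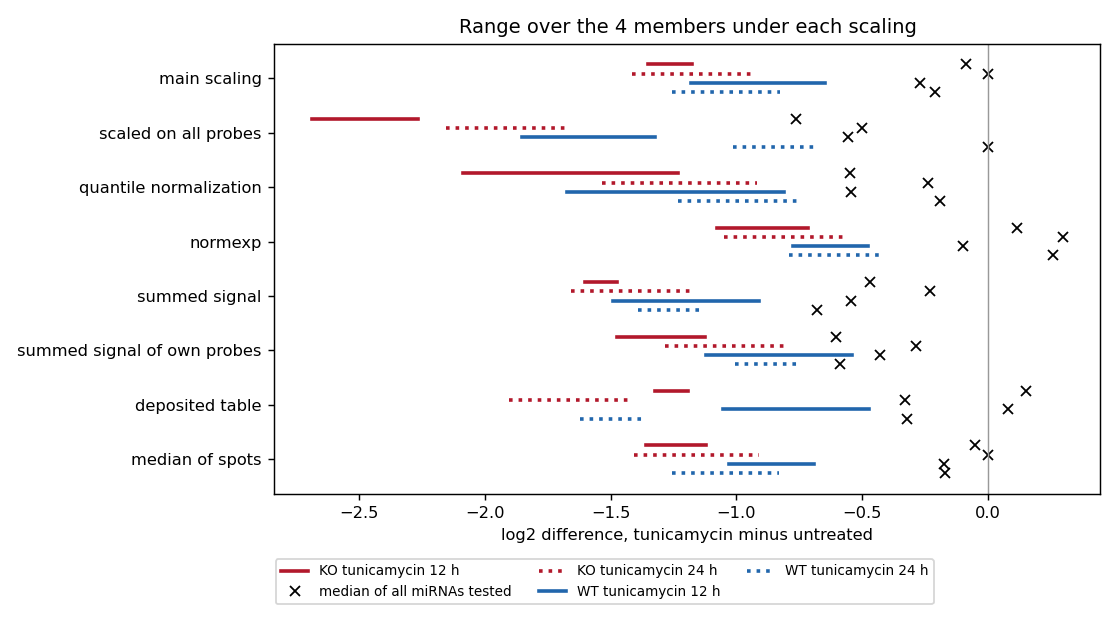
Range of the log2 difference, tunicamycin minus untreated, over the 4 members (lines, KO red and WT blue, 12 h solid and 24 h dotted) under 8 scalings or signals, with a cross for the median of all miRNAs tested. Every line lies left of its cross and left of 0.

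Genotype differences of the members did not pass the threshold. In untreated cells 0 of 4 members were called between KO and WT (limma; 0 at an unadjusted p under 0.05), where 28% of all miRNAs were called. All 4 were nominally higher in untreated KO than in WT arrays, without overlap (21.1% of all miRNAs were), with log2 differences from 0.10 ± 0.23 for miR-199a-5p to 0.31 ± 0.14 for miR-199a-3p (95% interval -0.03 to 0.65; limma, adjusted p = 0.18). Fitted on the untreated arrays alone, miR-199a-3p (limma, adjusted p = 0.0047) and miR-199b* (adjusted p = 0.020) passed. The SE of that fit comes only from the untreated arrays, whose replicates differed least. The share of all miRNAs called is not given here for that fit or for the next, so these calls cannot be set against it. In the fit on all groups miR-199a-3p also passed without either KO 12 h array (limma, adjusted p = 0.013). In the unscaled deposited values the same differences were 0.60 to 0.77 log2 units. Those values include the brightness of each array. The intensity used for scaling was 630 and 467 on the untreated KO arrays, against 373 and 418 on the untreated WT arrays. At 12 h, 0 of 4 members were called (limma; 0 at an unadjusted p under 0.05; 7.43% of all miRNAs), and at 24 h 0 of 4 (0 at an unadjusted p under 0.05; 9.71% of all miRNAs).

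For treated cells the signs differed between members. miR-214 was 0.40 ± 0.19 log2 units lower in KO than in WT cells at 12 h (95% interval -0.84 to 0.03; -0.68 and past the threshold without KO 12 h replicate 1, limma, adjusted p = 0.024; -0.13 without KO 12 h replicate 2, adjusted p = 0.66) and 0.35 ± 0.19 lower at 24 h (-0.78 to 0.09). miR-199a-3p differed by 0.02 ± 0.14 at 12 h (-0.32 to 0.36) and by 0.10 ± 0.14 at 24 h (-0.24 to 0.44), KO minus WT. Within each scanning run, which held 1 array of each group on its slide, miR-214 was lower in KO cells in both runs, by log2 differences of -0.21 and -0.59 at 12 h and -0.29 and -0.40 at 24 h. miR-199a-3p did not keep its sign, with 0.27 and -0.23 at 12 h and 0.23 and -0.03 at 24 h. The 0.27 uses WT 12 h replicate 1, where 3 spots of the dimmer miR-199a-3p probe were dim, as described below. With the brighter probe alone the 12 h levels were 1.24 in KO and 1.26 in WT cells in that run. In the other run they were 0.59 and 0.83, so at 12 h the change of sign was not seen with that probe.

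The response itself was compared between genotypes as KO change minus WT change. At 12 h 0 of 4 members were called (limma; 1 at an unadjusted p under 0.05), where 9.71% of all miRNAs were called. At 24 h 0 of 4 were called (limma; 0 at an unadjusted p under 0.05), where 13.1% of all miRNAs were. The differences for miR-214 were the largest of the 4, at -0.64 ± 0.26 log2 units at 12 h (95% interval -1.26 to -0.02; limma, adjusted p = 0.21) and -0.58 ± 0.26 at 24 h (-1.20 to 0.03; adjusted p = 0.21). The 12 h value rests on the KO arrays: without KO 12 h replicate 1 it was -0.92 and passed (limma, adjusted p = 0.020), and without KO 12 h replicate 2 it was -0.37 (adjusted p = 0.22). The 24 h value passed without either KO 12 h array (limma, adjusted p = 0.049), at the same difference with an SE of 0.17. The other 3 members differed by -0.35 to -0.13 at 12 h and by -0.21 to -0.04 at 24 h. Their 95% intervals ran from -1.13 to 0.45 at 12 h and from -0.91 to 0.65 at 24 h, so differences of that size in either direction remain within the error.

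**Figure D3:**
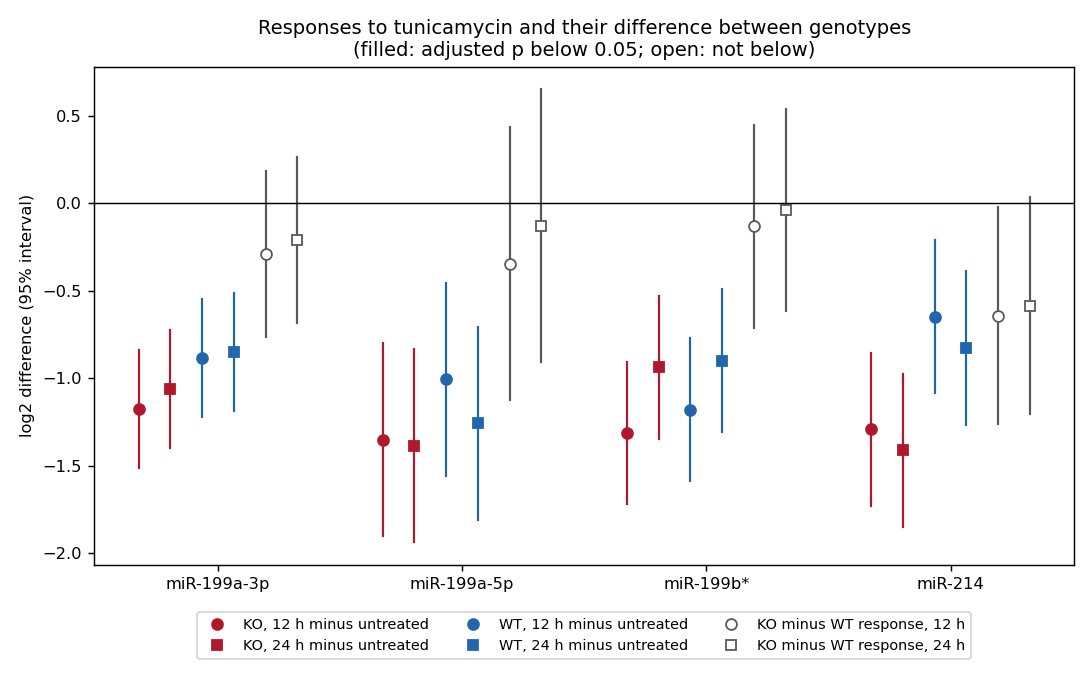
Log2 difference (vertical axis) with its 95% interval for each member: tunicamycin minus untreated in KO (red) and WT (blue) cells at 12 h (circles) and 24 h (squares), and the KO minus WT difference of these responses (grey). All 16 responses are filled (adjusted p below 0.05) and all 8 grey differences are open.

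Between 12 and 24 h, averaged over genotypes, 0 of 4 members were called (limma; 1 at an unadjusted p under 0.05; 8% of all miRNAs). miR-199b* was 0.33 ± 0.12 log2 units higher at 24 h than at 12 h (limma, adjusted p = 0.19), and was higher at 24 h in each run, by 0.36 and 0.39 in KO cells and by 0.35 and 0.21 in WT cells. On WT 12 h replicate 1, 6 spots of miR-199b* and 3 of miR-199a-3p were below 25% of their probe's median without being marked as outliers. On that array 12.4% of all spots of the 87 bright probes were this dim, mostly in its middle, against 1.68% or less on the other arrays. KO 12 h replicate 1 also had 2 spots of miR-199b* that were this dim. With the median of the spots in place of the mean, the miR-199b* difference between 24 and 12 h was 0.20. Over the 3 conditions, KO minus WT, 0 of 4 members were called (limma; 0 at an unadjusted p under 0.05; 34.3% of all miRNAs).

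**Figure D4:**
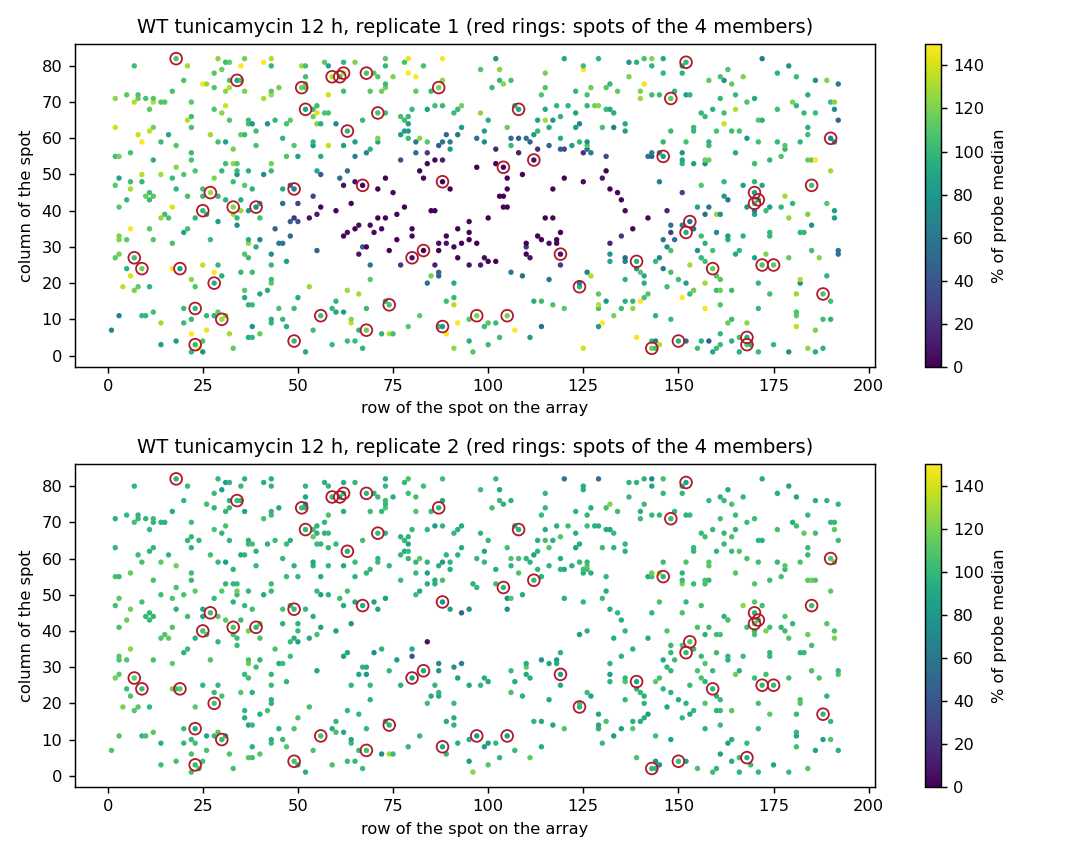
Position of each spot of the 87 bright probes on both WT 12 h arrays, coloured by its signal as a percent of its probe's median on that array, with the members' spots ringed. On replicate 1 (top) dim spots fill the middle of the array, and on replicate 2 (bottom) few remain there, spots marked as outliers being left out.

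Ratios between members on the same array are untouched by a scaling that divides each array by 1 factor, but not by quantile normalization or another background correction. The log2 ratio of miR-214 to miR-199a-3p was -1.49 and -1.51 on untreated KO arrays, -1.58 and -1.66 at 12 h and -1.78 and -1.92 at 24 h. On WT arrays it was -1.37 and -1.49 untreated, -1.09 and -1.30 at 12 h and -1.26 and -1.55 at 24 h. Every KO array had a lower ratio than the WT arrays of the same condition. In untreated cells the margin was narrow, with -1.494 on KO replicate 1 and -1.493 on WT replicate 2. With the median of spots that order was reversed, at -1.47 on untreated KO replicate 1 and -1.50 on untreated WT replicate 2. The mean KO minus WT difference was -0.31 (exact permutation of genotype within condition, two-sided, p = 0.0093, the smallest that 216 permutations allow; Benjamini-Hochberg adjusted over 6 tests, 0.056). It was -0.30 with normexp (exact permutation, adjusted p = 0.019) and -0.29 with quantile normalization (adjusted p = 0.47). With tunicamycin the same ratio differed from untreated by -0.052 (exact permutation within genotype, p = 0.63, adjusted 0.63), and by 0.15 with normexp (adjusted p = 0.040). Within runs the KO minus WT difference was -0.13 and -0.01 in untreated cells, -0.49 and -0.36 at 12 h and -0.52 and -0.37 at 24 h. The -0.49 uses WT 12 h replicate 1 with its dim miR-199a-3p spots. With the median of spots the ratios of replicate 1 at 12 h lay closer together, at -1.61 in KO and -1.25 in WT cells. The miR-199a-5p level includes a probe that was not well above background on the replicate 2 arrays of the tunicamycin groups. That probe fell more than the brighter one in each treatment comparison, from -1.61 against -0.91 in WT cells to -1.49 against -1.28 in KO cells, both at 24 h. The ratio of miR-199a-5p to miR-199a-3p was lower by 0.26 log2 units in tunicamycin than in untreated arrays (exact permutation within genotype, 225 permutations, p = 0.040, adjusted 0.080). That difference turned to 0.31 with normexp (exact permutation, adjusted p = 0.019), was -0.59 with quantile normalization, and was -0.39 and -0.12 with 1 replicate of all groups left out. The same ratio was lower by 0.20 in KO than in WT arrays (p = 0.037 by exact permutation, adjusted 0.080), and by 0.027 with quantile normalization. The ratio of miR-199b* to miR-199a-3p differed by -0.09 with tunicamycin (p = 0.38, exact permutation, adjusted 0.54) and by -0.04 between KO and WT (p = 0.45, adjusted 0.54). None of the 6 tests passed after adjustment in the main setting.

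**Figure D5:**
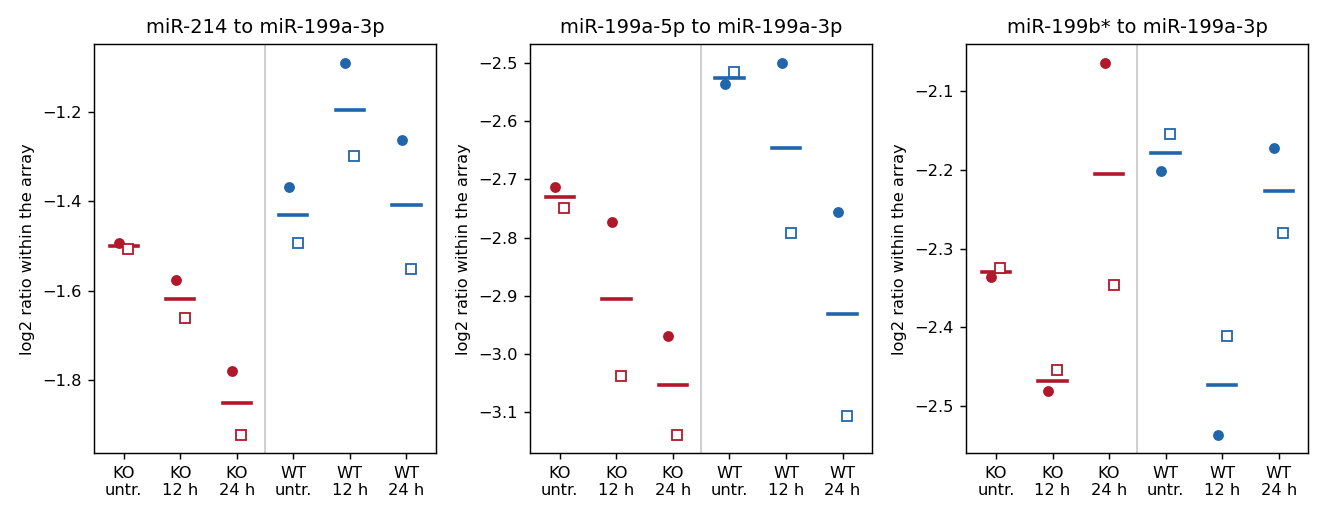
Log2 ratio of each of 3 members to miR-199a-3p on the same array (vertical axis) by group, KO left and WT right, circles for replicate 1, squares for replicate 2 and bars for the mean. In the left panel, miR-214, each KO array lies below the WT arrays of the same condition, in untreated cells only narrowly.

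Across the 12 arrays the 4 members correlated with each other at Pearson r of 0.86 to 0.97, a description of arrays that share slide, run and scale. Of 55 other miRNAs well above background on all 12 arrays, the 5 most like the members' mean were let-7i (r = 0.94), miR-26a (0.93), miR-21 (0.90), miR-103 (0.90) and miR-125b-5p (0.89). let-7i, of the let-7 family of growth-restraining miRNAs, had log2 differences of -1.0 and -0.77 in KO cells and -1.34 and -1.12 in WT cells at 12 and 24 h. For miR-26a they were -1.10 and -0.82 in KO cells and -1.44 and -1.50 in WT cells.

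The other mesenchymal and fibroblast miRNAs, of which 17 were tested, were set beside the members. In KO cells 3 fell and 0 rose at 12 h, and 1 fell and 0 rose at 24 h (limma, adjusted p below 0.05). Of all miRNAs, 14.3% and 8% were called lower in those comparisons. In WT cells 9 fell and 0 rose at 12 h, and 8 fell and 0 rose at 24 h, against 38.3% and 33.7% of all miRNAs called lower. The list's median log2 difference in KO cells was -0.42 and -0.24 at 12 and 24 h, beside -0.09 and -0.00049 over all miRNAs. In WT cells it was -0.66 and -0.49, beside -0.27 and -0.21 over all miRNAs. Of the 9 that were well above background on all arrays, miR-21, a miRNA abundant in fibroblasts, fell in WT cells, with log2 differences of -1.03 ± 0.18 and -1.02 ± 0.18 at 12 and 24 h (limma, adjusted p = 0.0034 and 0.0036). miR-23b fell in WT cells, with log2 differences of -1.55 and -1.37, and miR-125b-5p passed in WT cells at 24 h, at -1.03. In KO cells 0 of these 9 passed, with miR-21 at -0.54 and -0.55 and miR-31 at -0.27 and -0.54 at 12 and 24 h. The remaining 5, miR-22, miR-24, miR-29a, miR-29b and miR-221, passed in none of the 4 comparisons, with log2 differences between -0.82 and 0.05.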

How the data were processed

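Mouse embryonic fibroblast RNA was hybridised to 12 miRNA arrays with 1 dye. Spot intensities were deposited as Agilent Feature Extraction 10.7.1.1 wrote them, per the submitters' processing notes, background- and trend-corrected and unscaled (per the file headers). In the authors' deposited value table, log2 numbers are given that equal the log2 of TotalGeneSignal, the software's summed signal for a miRNA. On each array, 28.5% to 37.2% of the detected miRNAs had a summed signal above the sum of their own probes.

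Control spots (715 of 13715) and outlier spots were left out, and spots of a probe (10 for each member probe) were averaged. Scaling divided the signals of an array by the 75th percentile of 87 probes (6 of them member probes) that were well above background throughout; a floor of 0.0309 and log2 followed. Probes entered a miRNA's mean if well above background in both replicates of any group. limma 3.58.1 (R 4.3.3) was fitted to 6 group means, with Benjamini-Hochberg adjustment over 175 miRNAs in each of 11 comparisons and a threshold of 0.05. Exact permutation tests used numpy 2.4.6. The fits were tested on simulated data.

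Precision is limited by 2 arrays per group, with 85 to 171 miRNAs per array well above background. Members and lists were chosen with earlier results of these data known. Named are the members, the 5 miRNAs most like their mean, and mesenchymal miRNAs well above background on all arrays. Differences between replicates correlated at 0.82 to 0.94 between treated groups, at 0.74 between the untreated groups, and at -0.66 to -0.45 between treated and untreated groups, so replicate numbers did not pair the samples across treatment; the file headers show that same-numbered arrays of one slide shared a scanning run. Alternatives covered scaling, background, signal, filters, floor, probes, blocks and each array left out; the median of spots, the sums over own probes, the crossed block and quantile-normalized ratios were added after the data were seen. normexp used the median spot signal.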

Additional observations from a re-analysis of the deposited data

Results flagged for a closer look

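miR-214*, the passenger arm of the miR-214 hairpin, was not among the members but was listed by the scanner software above its minimum on both untreated KO arrays. Its summed signal there was 982 and 749.8, against 0.1 on the other 10 arrays. On the same 2 KO arrays the summed signal of miR-214 was 978 and 745.7. The differences, 4.42 and 4.04, equalled to 3 digits the sum of one of the miR-214* probes (4.42 and 4.04). All its own probes together came to 4.95 and 4.27. What adds the miR-214 signal was not tested, and the alternatives on summed signals use the same sums.

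The log2 ratio of miR-214 to miR-199a-3p at 12 h moved in opposite directions in the 2 genotypes. It changed by -0.07 and -0.16 on the KO arrays and by 0.34 and 0.13 on the WT arrays, each relative to the untreated mean, a KO minus WT difference of -0.35. The difference of these responses was not tested. With the median of spots the changes were -0.12 and -0.22 in KO cells and 0.17 and 0.09 in WT cells. With quantile normalization the signs no longer separated the genotypes, with 0.068 and -1.22 in KO cells and 0.25 and -0.69 in WT cells.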

How the results depend on the processing

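Over the 4 members and 4 treatment comparisons, all 432 values from alternatives were negative, and 331 of them also stayed past the threshold. Many of these values could not differ from the main difference. The blocks, the fits on the groups compared alone and left-out arrays of other groups could change only the SE and p. The number of members called in KO cells at 12 h and 24 h, then in WT cells at 12 h and 24 h, was 0, 0, 0 and 0 with all-probe scaling and likewise with the deposited table. It was 1, 0, 0 and 0 with quantile normalization, 3, 2, 0 and 0 with normexp, 1, 0, 1 and 0 with the summed signal, 4, 3, 2 and 3 with sums over own probes, 3, 4, 2 and 3 with no filter, and 0, 3, 4 and 4 when fitted on the groups compared alone, where untreated KO against WT gained 2. With the replicate block, the scanning run block or the crossed replicate block it was 4, 4, 4 and 4, and no other member call changed under these blocks. In the same order, the number of all miRNAs called, in either direction, was 10, 11, 14 and 10 of 175 with quantile normalization. It was 5, 5, 1 and 3 of 175 with normexp, 10, 9, 29 and 27 of 204 with the summed signal, and 22, 18, 36 and 38 of 175 with sums over own probes. These numbers are not given here for no filter and for the fits on the groups compared alone. Why scaling moved the calls was not tested.

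With 1 array left out, the lone array of a group was assumed to vary like the other groups, and the counts ranged from 3 to 4 and 2 to 4 in KO cells and from 2 to 4 and 3 to 4 in WT cells. Untreated KO against WT ranged from 0 to 1, KO against WT at 12 h from 0 to 1, the difference of responses from 0 to 2 at 12 h and from 0 to 1 at 24 h, 24 h against 12 h from 0 to 2, and KO against WT over all conditions from 0 to 1. The calls gained came without a KO 12 h array.

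The member differences below changed sign and were not called in either setting. For KO minus WT at 12 h, miR-199a-3p became -0.25 (all probes), -0.25 (quantile), -0.17 (summed), -0.15 (own probes), -0.13 (brightest probe) and -0.031 (median of spots), and miR-199b* became -0.16 (all probes), -0.18 (quantile), -0.056 (summed), -0.25 (own probes), -0.024 (normexp) and -0.030 (median of spots). miR-199a-5p became 0.087 with the deposited table. At 24 h, miR-199a-3p became -0.34 and miR-199b* -0.32 (all probes) and -0.065 (normexp), and with the deposited table miR-199a-5p became 0.32 and miR-214 0.22. For the difference of responses at 24 h, miR-199b* became 0.058 (summed), 0.047 (own probes) and 0.043 (deposited table). For 24 h minus 12 h, miR-199a-5p became 0.35 (all probes), 0.28 (quantile) and 0.074 (normexp), miR-214 became 0.58 (all probes) and 0.41 (quantile), and with the deposited table miR-199a-3p became -0.56 and miR-199b* -0.25. For KO minus WT over all conditions, miR-199a-3p became -0.020 (quantile), miR-199b* -0.0046 (normexp), and with the deposited table miR-199a-5p became 0.33 and miR-214 0.27.

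With 1 array left out, KO minus WT at 12 h ranged from -0.22 to 0.25 for miR-199a-3p, from -0.61 to 0.13 for miR-199a-5p and from -0.20 to 0.25 for miR-199b*. At 24 h it ranged from -0.17 to 0.13 for miR-199a-5p and from -0.086 to 0.33 for miR-199b*. The difference of responses ranged at 12 h from -0.71 to 0.022 for miR-199a-5p and from -0.35 to 0.090 for miR-199b*, and at 24 h from -0.28 to 0.021 and from -0.24 to 0.17. From 12 to 24 h, miR-199a-3p ranged from -0.044 to 0.19 and miR-199a-5p from -0.33 to 0.040, and over all conditions KO minus WT miR-199a-5p ranged from -0.18 to 0.069.

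Of the ratios to miR-199a-3p, those with tunicamycin changed sign with normexp, to 0.15 for miR-214 (adjusted p = 0.040, exact permutation), 0.31 for miR-199a-5p (0.019) and 0.25 for miR-199b*. With normexp the KO minus WT ratios of miR-214 (-0.30) and miR-199a-5p (-0.29) passed the threshold. The miR-199b* ratio between KO and WT became 0.045 with the brightest probe and 0.068 with quantile normalization, which was added for the ratios after the data were seen. Without replicate 1 or 2 of all groups it ranged from -0.094 to 0.010, and the miR-214 ratio with tunicamycin from -0.11 to 0.0047, with too few arrays left for the test to pass.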
